A study of Homo sapiens with 10 samples.

Results

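The enzymes described here are 10 members of the routes that build purine and pyrimidine nucleotides from small precursors: PPAT, GART, PFAS, PAICS, ATIC, IMPDH2 and GMPS on the purine side, and CAD, UMPS and CTPS1 on the pyrimidine side. They are listed by symbol and the rule uses no measured value. The enzymes, and the lists of other genes below, were however chosen with earlier results of these data known. Their counts beside the shares of all genes are therefore descriptive. All 10 were found, each by 1 probe set, among 22432 genes named by a single-gene probe set. On GRCh38.p14, PPAT and PAICS lie on chromosome 4, CAD and ATIC on 2, UMPS, GMPS and IMPDH2 on 3, GART on 21, PFAS on 17 and CTPS1 on 1. The cells were 786-O, a human clear-cell renal carcinoma line without functional VHL, the protein that marks hypoxia-inducible factors and the transcription factor ZHX2 for degradation. All cultures had been infected with lentivirus and selected with puromycin at 2 ug/ml. In one table the cells carried ZHX2 hairpin 44, ZHX2 hairpin 45 or a scrambled hairpin. In a separate table, cells with p65 shRNA, directed at the NF-kB subunit encoded by RELA, were set against cells with control shRNA. Each of the 5 groups had 2 arrays, and the labels do not say whether these came from separate cultures, so the p-values below may measure technical spread only.

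Cells make purines by assembling the ring stepwise on activated ribose, which yields inosine monophosphate, and then branch to adenine and guanine nucleotides. Pyrimidines are made the other way round: the ring is built first and ribose is attached afterwards, which yields uridine monophosphate. CTP is formed from UTP in a later step. Proliferating cells, tumour cells among them, draw on both routes for RNA and DNA synthesis, and several of the enzymes are textbook targets of MYC, which binds E-boxes, most often with the sequence CACGTG.

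Values are deposited log2 signals, so a difference of 1 is a doubling. Signals of different probe sets are not comparable as levels. Mean signal was used across genes to pick probe sets of similar brightness as a background. In alternative fits it was also used to remove dim probe sets or to let dim and bright ones differ in spread. A gene is called changed where its adjusted p, from a limma fit over all 22432 genes with Benjamini-Hochberg adjustment, is under 0.05. In the ZHX2 table the array medians lay between 6.15 and 6.22 and replicate arrays correlated at 0.993 to 0.995. The interquartile range of the arrays was highest with hairpin 45: it was 2.88 and 2.90 for hairpin 44, 2.93 and 2.94 for hairpin 45, and 2.89 and 2.80 for scrambled. The p65 table, of another array type, had medians of 1.87 to 1.89 and replicate correlations of 0.985 and 0.987.

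Both knockdown targets were lower in the cells labelled for them. ZHX2 had signals of 9.35 and 9.38 under hairpin 44, of 8.93 and 9.02 under hairpin 45, and of 10.58 and 10.43 on the scrambled arrays. The change for both hairpins together was -1.33 (SE 0.0746, adjusted p = 0.00105). RELA had signals of 5.04 and 5.28 with p65 shRNA, against 7.64 and 7.67 with control shRNA, a change of -2.50 (adjusted p = 0.0733). PAX8, the kidney lineage factor, lay at 12.15 ± 0.03 with hairpin 44 and 11.75 ± 0.01 with hairpin 45, against 12.33 ± 0.02 in scrambled cells (SD, n = 2 each). It fell with the hairpins averaged by 0.38 (adjusted p = 0.0117). Against scrambled cells, its change was -0.58 with hairpin 45 (adjusted p = 0.00528). With hairpin 44 it was -0.18 and not called (adjusted p = 0.191). CDH6, a renal cadherin, fell by 1.92, and KRT18, an epithelial keratin, rose by 0.62. Of the 5 renal and epithelial markers measured, KRT8 at 0.18 and VIM at 0.11 were not called. None of the 3 measured leukocyte and none of the 4 endothelial markers was called, while of the 4 fibroblast markers LUM fell by 0.95 and the other 3 were not called.

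The promoters of the first purine enzyme and of a later one are shown first, because PPAT and PAICS lie head to head and share 1 stretch of DNA. Sequences are RefSeq's, on GRCh38.p14, and run from 250 bases before to 50 bases after a gene's annotated start, 5′ to 3′ on the gene's strand. Capitals mark CACGTG, which reads the same on both strands and was the only motif searched. The PPAT window lies at chr4:56435566-56435865 on the minus strand. PAICS has 3 annotated starts with a window each. The 1 shown, at chr4:56435502-56435801 on the plus strand, was picked because it holds CACGTG. The ATIC window at chr2:215311809-215312108, plus strand, is shown as the only member window with 2 matches. The CAD window at chr2:27217119-27217418, plus strand, is shown as a window without a match. Sequence more than 50 bases after a start was not searched, so a CACGTG there would be missed.
PPAT: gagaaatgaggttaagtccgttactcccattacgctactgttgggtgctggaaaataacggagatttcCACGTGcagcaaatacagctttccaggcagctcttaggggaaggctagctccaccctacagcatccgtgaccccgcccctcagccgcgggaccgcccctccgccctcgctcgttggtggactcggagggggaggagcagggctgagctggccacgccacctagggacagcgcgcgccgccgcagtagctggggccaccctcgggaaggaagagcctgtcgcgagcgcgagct
PAICS: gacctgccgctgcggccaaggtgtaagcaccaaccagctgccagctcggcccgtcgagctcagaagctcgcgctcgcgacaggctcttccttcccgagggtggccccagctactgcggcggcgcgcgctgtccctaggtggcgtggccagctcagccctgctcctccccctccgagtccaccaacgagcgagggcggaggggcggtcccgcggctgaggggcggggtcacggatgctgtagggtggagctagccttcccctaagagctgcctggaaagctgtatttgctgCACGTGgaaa
ATIC: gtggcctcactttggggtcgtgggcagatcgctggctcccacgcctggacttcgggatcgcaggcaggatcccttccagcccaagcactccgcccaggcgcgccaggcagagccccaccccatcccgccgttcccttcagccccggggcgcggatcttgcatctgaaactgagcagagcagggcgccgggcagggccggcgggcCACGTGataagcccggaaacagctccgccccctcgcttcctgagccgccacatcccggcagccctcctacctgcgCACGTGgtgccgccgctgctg
CAD: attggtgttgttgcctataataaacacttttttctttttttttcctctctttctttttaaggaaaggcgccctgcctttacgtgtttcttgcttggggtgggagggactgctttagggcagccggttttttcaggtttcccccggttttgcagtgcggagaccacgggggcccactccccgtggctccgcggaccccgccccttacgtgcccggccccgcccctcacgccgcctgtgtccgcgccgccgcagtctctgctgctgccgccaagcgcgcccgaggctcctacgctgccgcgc
The annotated start of PPAT and the PAICS start of the window shown are 137 bases apart, and these windows overlap by 236 bases. The single CACGTG of each window is the same genomic hexamer, at chr4:56435792-56435797, which stands at position -182 from the PPAT start and at position 41 from the PAICS start. The ATIC matches stand at positions -46 and 30.

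Of the 10 genes, 9 had a window in the RefSeq table, 14 windows in all, and 3 genes held the motif, of which PPAT and PAICS hold it once between them. Over all promoters 7.26% of 35116 windows, or 8.77% of 27305 genes, held it. The other 2 PAICS windows and those of GART, PFAS, GMPS, CAD, UMPS and CTPS1 held no CACGTG. This does not show that these genes lack the motif near their starts, because only the windows were searched. A match describes letters in a window and not a binding site, and no binding was measured in these data.

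With ZHX2 knocked down, transcripts of nearly the whole set were higher. Against scrambled cells, 9 of the 10 genes rose with the hairpins averaged, by 0.40 to 0.88 on the log2 scale, which is 1.32-fold to 1.84-fold, and none fell. GMPS was the exception, with a difference of 0.21 that was not called. Over all genes, 11.9% were called higher. All 10 genes had every hairpin array above both scrambled arrays, a pattern seen in 21.9% of all genes. The median change of the 10 genes was 0.53, and the median of all genes was -0.0043. Brighter probe sets were called more often on these arrays: of the 4302 genes whose mean signal lay within the range of the 10 genes, 29.5% were called higher, and their median change was 0.13. That comparison was chosen after the data were seen. After quantile normalization, which gives all arrays 1 distribution of signals, 9 of the 10 were again called and their median was 0.43. The share of higher genes among all called was then 53.2%, against 64.9% on the signals as deposited. In RNA of whole cultures, more cells expressing a gene and more RNA per cell cannot be told apart.

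PPAT, the amidotransferase that commits ribose phosphate to purine synthesis, had 9.20 and 9.15 on the hairpin 44 arrays, 9.47 and 9.44 on the hairpin 45 arrays, and 8.76 and 8.79 on the scrambled arrays. The lowest hairpin array was thus well above the higher scrambled array, and hairpin 45 stood above hairpin 44. PPAT rose by 0.54 (SE 0.0618, adjusted p = 0.00477). GART, a protein with 3 enzyme activities in the purine route, had log2 signals of 8.88 and 8.93 for hairpin 44, 9.07 and 9.01 for hairpin 45, and 8.47 and 8.33 for scrambled. It rose by 0.57 (SE 0.0725, adjusted p = 0.00621), with no overlap between groups.

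PFAS, which adds a glutamine nitrogen to the growing purine ring, had signals of 9.90 and 9.84 under hairpin 44, of 9.78 and 9.90 under hairpin 45, and of 9.35 and 9.31 on the scrambled arrays. Here the arrays of the hairpins overlapped each other, and all 4 were above the scrambled arrays. PFAS rose by 0.52 (SE 0.0693, adjusted p = 0.00699). PAICS, which carries 2 consecutive steps after that and shares its promoter stretch with PPAT as printed above, had 10.44 and 10.45 on the hairpin 44 arrays, 10.62 and 10.60 on the hairpin 45 arrays, and 10.19 and 10.07 on the scrambled arrays. PAICS rose by 0.40 (SE 0.0669, adjusted p = 0.0132), the smallest change among the 9 called genes.

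ATIC, which closes the ring and yields inosine monophosphate, had log2 signals of 10.23 and 10.29 for hairpin 44, 10.38 and 10.39 for hairpin 45, and 9.92 and 9.88 for scrambled. Replicates differed by at most 0.06 and the groups did not overlap. ATIC rose by 0.42 (SE 0.0627, adjusted p = 0.00983). Every one of the 5 genes of the shared purine trunk in the set therefore passed the test in the same direction.

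On the branch to guanine nucleotides 1 of the 2 genes was called. IMPDH2, the enzyme that sets the pace of guanine nucleotide synthesis and the target of mycophenolic acid, had signals of 10.25 and 10.20 under hairpin 44, of 10.49 and 10.40 under hairpin 45, and of 9.89 and 9.67 on the scrambled arrays. It rose by 0.55 (SE 0.0853, adjusted p = 0.0104). GMPS, which follows IMPDH2 and adds the amino group of GMP, had 10.03 and 10.11 on the hairpin 44 arrays, 10.23 and 10.28 on the hairpin 45 arrays, and 9.99 and 9.93 on the scrambled arrays. The hairpin 44 arrays lay just above the scrambled ones and only hairpin 45 was clearly apart. The GMPS difference of 0.21 had a 95% interval of 0.0447 to 0.369 and an adjusted p of 0.0861. With an intensity trend in the variance, an alternative fit that lets dim and bright probe sets differ in spread, GMPS was called as well (adjusted p = 0.006). That fit called 17.3% of all genes higher.

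The pyrimidine side held the largest change of the set. CTPS1, which makes CTP from UTP, had log2 signals of 9.20 and 9.17 for hairpin 44, 9.37 and 9.52 for hairpin 45, and 8.46 and 8.40 for scrambled. The gap between the lowest hairpin array and the highest scrambled array was wider than any difference between its replicates. CTPS1 rose by 0.88 (SE 0.0736, adjusted p = 0.00235), and 0.526% of all genes had a larger positive change. CAD, the protein that carries the first 3 steps of pyrimidine synthesis, had signals of 10.44 and 10.44 under hairpin 44, of 10.39 and 10.42 under hairpin 45, and of 10.07 and 9.91 on the scrambled arrays. CAD rose by 0.43 (SE 0.0724, adjusted p = 0.0131), to much the same level with both hairpins. UMPS, which attaches ribose phosphate to orotate and yields UMP, had 8.55 and 8.65 on the hairpin 44 arrays, 8.94 and 8.89 on the hairpin 45 arrays, and 8.30 and 8.11 on the scrambled arrays. UMPS rose by 0.55 (SE 0.0816, adjusted p = 0.00947).

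Some of these calls rested on narrow margins, with 2 arrays a group. Without scrambled replicate 2, the adjusted p was 0.0596 for PAICS, 0.05004 for ATIC and 0.056 for CAD, so that 6 of the 10 genes were called. The adjusted p of PAICS was 0.0505 without hairpin 44 replicate 2 and 0.0509 without hairpin 45 replicate 1, and that of CAD was 0.051 without hairpin 45 replicate 2. When calls were kept only where the estimated change was at least 1.5-fold, CTPS1 alone remained.

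**Figure D1:**
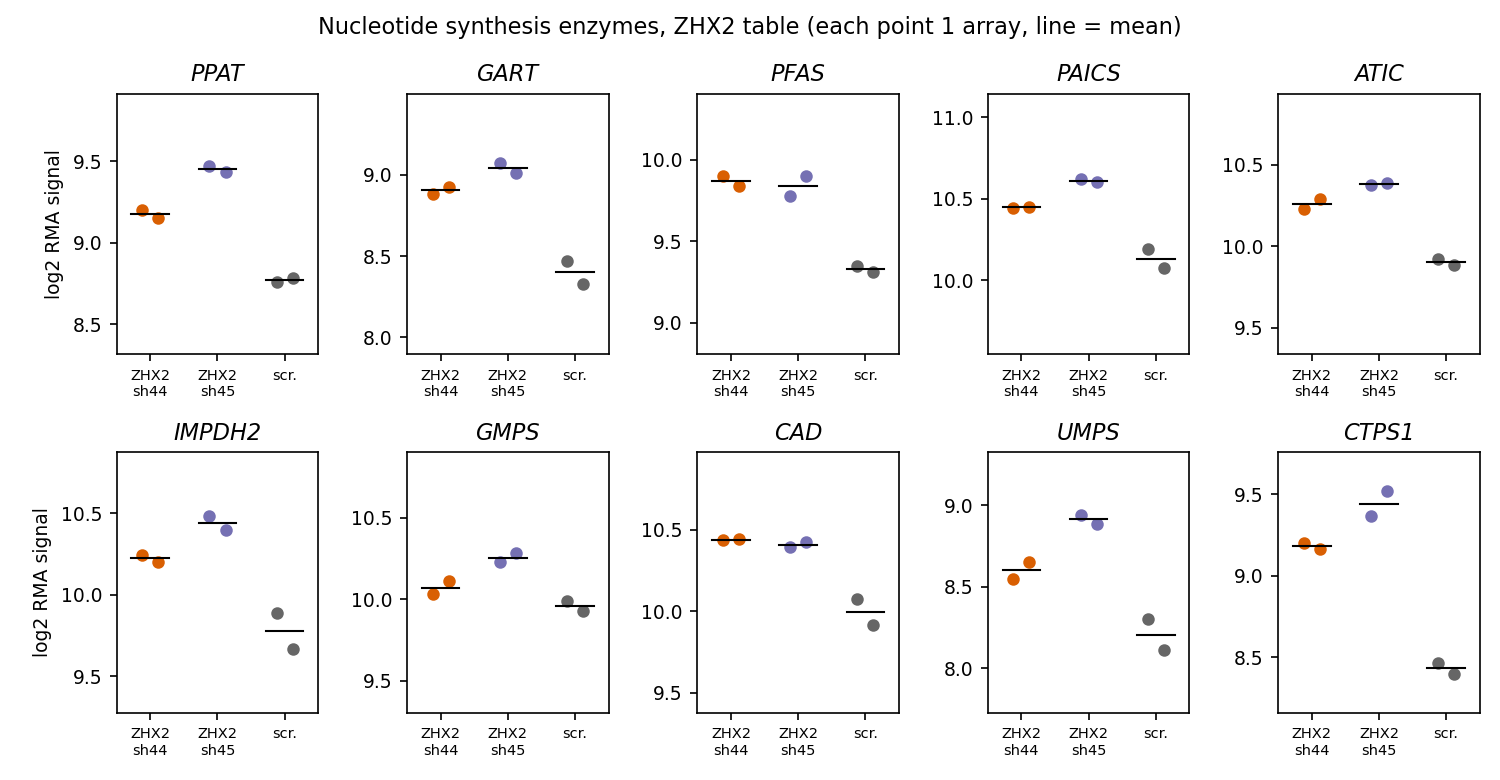
Log2 signal of each of the 10 enzymes on every array of the ZHX2 table, with 1 panel per gene, points for the 2 arrays of each group and a line at the group mean. Hairpin 44, hairpin 45 and scrambled run from left to right; in every panel all 4 hairpin points are above both scrambled points, by the least for GMPS and by the most for CTPS1.

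Each hairpin was also set against scrambled cells on its own. With hairpin 45, whose arrays had the lower ZHX2 signals, all 10 genes rose, by a median of 0.57, where 13.0% of all genes were called higher. With hairpin 44, 6 of the 10 rose, with a median of 0.43 over the 10, where 4.81% of all genes were called higher. Of the genes within the signal range of the 10, 31.8% were called higher with hairpin 45 and 12.7% with hairpin 44. The comparisons of the hairpins use the same scrambled arrays. CTPS1 changed by 0.75 with hairpin 44 (SE 0.085, adjusted p = 0.0116) and by 1.01 with hairpin 45 (SE 0.085, adjusted p = 0.00233). PPAT, GART, PFAS, ATIC and CAD were the other genes called with hairpin 44, with changes of 0.36 to 0.54. The genes not called with hairpin 44 were PAICS at 0.32 (adjusted p = 0.0656), IMPDH2 at 0.45 (adjusted p = 0.0517), UMPS at 0.39 (adjusted p = 0.0626) and GMPS at 0.11 (adjusted p = 0.427). With an intensity trend, PAICS (adjusted p = 0.00148), IMPDH2 (adjusted p = 0.00107) and UMPS (adjusted p = 0.0055) were called too, which made 9 of the 10 with hairpin 44, where 11.7% of all genes were called higher, and 10 of the 10 with hairpin 45, where 18.3% were. Without the trend, the hairpin 44 count was 0 or 1 when any 1 of the 6 arrays was left out. The hairpin 45 count was 3 without hairpin 45 replicate 1 and 4 without hairpin 45 replicate 2.

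The direct difference between the hairpins was not called for any of the 10 genes, and 0.397% of all genes were called in either direction. Without adjustment, PPAT, UMPS and CTPS1, 3 of the 10, had a p under 0.05, as had 15.1% of all genes. Of the 10 genes, 8 had both hairpin 45 arrays above both hairpin 44 arrays, as had 26.9% of all genes, and CAD had both below. With an intensity trend, PPAT at 0.27 (adjusted p = 0.02) and UMPS at 0.31 (adjusted p = 0.043) were called higher with hairpin 45, where 4.11% of all genes were. The CTPS1 difference of 0.26 had a 95% interval of 0.0479 to 0.465, and that of CAD, at -0.03, an interval of -0.236 to 0.175. ZHX2 itself differed by -0.39 (SE 0.0862, adjusted p = 0.152, or 0.00515 with an intensity trend).

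**Figure D2:**
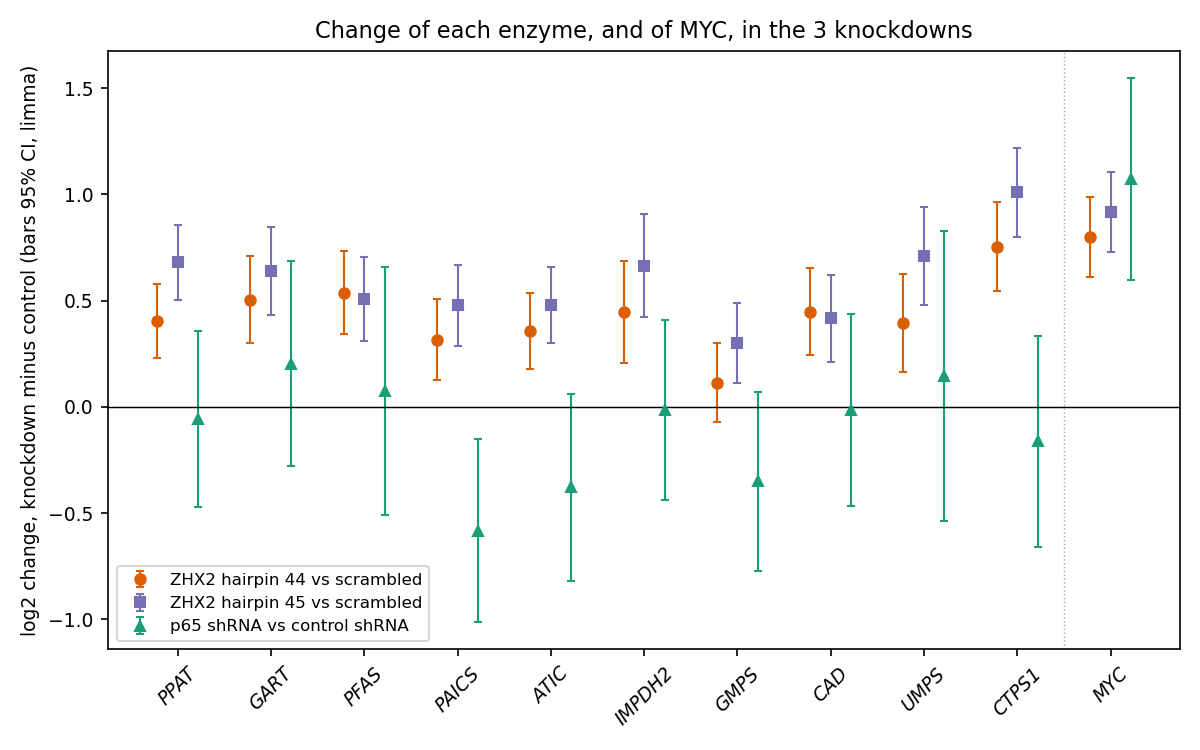
Change in log2 signal of the 10 enzymes and, at the right, of MYC, each with its 95% interval from the limma fit. The comparisons are hairpin 44 against scrambled, hairpin 45 against scrambled and p65 shRNA against control shRNA. The hairpin changes of the enzymes are all above 0, between 0.11 and 1.01. Their p65 changes lie on both sides of 0, between -0.58 and 0.20. MYC stands at 0.80 with hairpin 44, 0.92 with hairpin 45 and 1.07 with p65 shRNA.

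Without an intensity trend, 1 of the second isoenzymes in the set's own steps was called and 1 was not. That fit called 3 of the 7 other purine genes higher, IMPDH1 among them, and none of the 2 other pyrimidine genes. It called 11.9% of all genes higher, and 29.5% of those in the signal range of the 10 enzymes. IMPDH1, the other inosine monophosphate dehydrogenase, had log2 signals of 10.24 and 10.14 for hairpin 44, 10.27 and 10.27 for hairpin 45, and 9.84 and 9.91 for scrambled. IMPDH1 rose by 0.36 (SE 0.067, adjusted p = 0.0183). CTPS2, the other CTP synthase, was not called, with signals of 8.70 and 8.70 under hairpin 44, of 8.79 and 8.71 under hairpin 45, and of 8.86 and 8.90 on the scrambled arrays. Its change was -0.15 (SE 0.0641, adjusted p = 0.168). Every hairpin array was nevertheless below both scrambled arrays, as in 3689 of all 22432 genes. The array thus gave a called difference for CTPS1 and none for CTPS2, and the contrast between them was not tested.

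ADSL, which acts in the purine trunk after PAICS and again on the adenine branch, had 8.98 and 8.85 on the hairpin 44 arrays, 8.90 and 8.84 on the hairpin 45 arrays, and 8.78 and 8.53 on the scrambled arrays. Its difference of 0.24 was not called (SE 0.0929, adjusted p = 0.14). DHODH, the mitochondrial step of pyrimidine synthesis between CAD and UMPS, had log2 signals of 8.11 and 7.96 for hairpin 44, 8.35 and 8.06 for hairpin 45, and 7.80 and 7.37 for scrambled. Its difference of 0.54 was as large as that of PPAT, but its scrambled arrays stood further apart than those of any of the 10 enzymes, and the adjusted p was 0.0566. Neither gene had a hairpin array below a scrambled one. Among the 7 other purine genes measured, PRPSAP2 at 0.42, PRPS1, a source of activated ribose, at 0.41 and IMPDH1 rose. None fell, and the median was 0.24. Of the 2 other pyrimidine genes, DHODH and CTPS2, none was called. With an intensity trend, ADSL (adjusted p = 0.0359) and DHODH (adjusted p = 0.00527) were called higher. That fit called 4 of the 7 other purine genes, 1 of the 2 other pyrimidine genes and 17.3% of all genes higher.

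In the pathways that feed and follow these routes, genes were likewise called higher and none lower. Over 8 lists of other nucleotide genes, 25 of 65 measured genes rose, or 38.5%, and none fell, with a median of 0.21. The share called higher was 11.9% of all genes and 29.5% of those in the signal range of the 10 enzymes. The 65 genes were not limited to that range, so 38.5% and 29.5% are of genes of unlike brightness. In the folate one-carbon list, which provides carbon units for purines and thymidylate, 5 of 10 rose. MTHFD2, a mitochondrial folate enzyme, rose by 0.86 (adjusted p = 0.00186), SLC19A1, the reduced folate carrier, by 0.46 and MTHFD1 by 0.44. MTHFD2 read 9.37 and 9.36 under hairpin 44, 9.59 and 9.66 under hairpin 45, and 8.64 and 8.62 on the scrambled arrays. In the list for ribose, serine and nitrogen supply 4 of 10 rose, among them PSAT1, which makes serine's phosphorylated precursor, by 0.93, RPIA, which makes ribose phosphate, by 0.60, and GOT2, which makes aspartate, by 0.57.

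Deoxynucleotide and thymidylate synthesis had 6 of 11 genes called higher. RRM2 and RRM1, the subunits of ribonucleotide reductase, rose by 0.65 each and TK1, thymidine kinase, by 0.58. In the salvage list 3 of 7 rose: ADK, adenosine kinase, by 0.70, HPRT1, which recovers hypoxanthine and guanine, by 0.61, and CMPK1 by 0.30. The breakdown list had 3 of 14 genes called higher and a median of 0.03, and these small lists were not tested against each other or against the share of 29.5% given above. It held the largest change of the 8 lists, that of NT5E, the surface enzyme that turns AMP into adenosine, at 1.13 (SE 0.0732, adjusted p = 0.00153). PNP and NT5C3A rose by 0.50 and 0.49. Of 4 nucleoside transporters SLC29A1 rose, by 0.62.

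**Figure D3:**
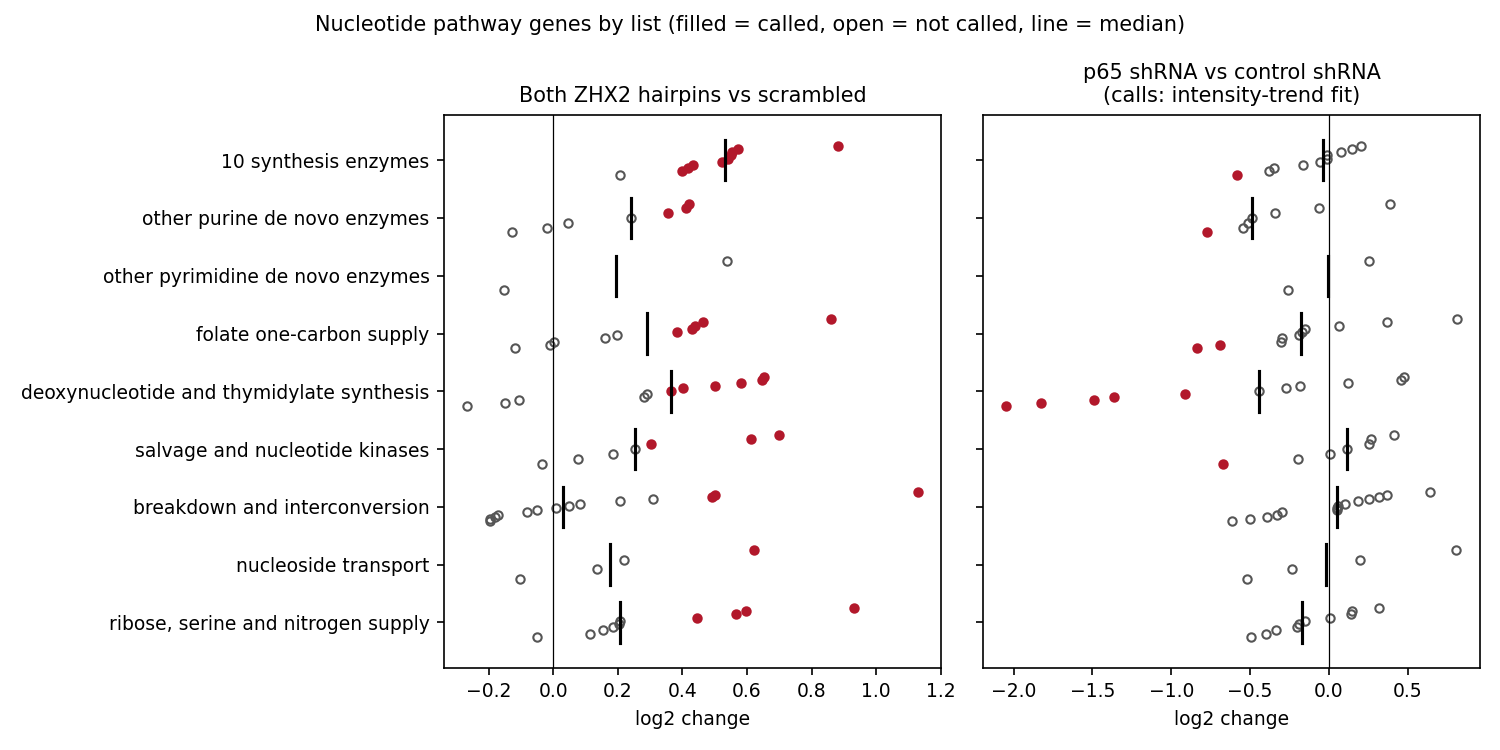
Change in log2 signal of each measured gene in the 10 enzymes and in the 8 lists of other nucleotide genes, with the ZHX2 hairpins against scrambled on one side and p65 shRNA against control shRNA on the other, and a line at each list's median. Among these lists the enzyme set has the highest median with the hairpins, 0.53, while with p65 shRNA the deoxynucleotide list lies lowest in single genes, down to -2.05 for TK1.

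Regulators of these genes were read on the same arrays. MYC had signals of 8.96 and 8.90 under hairpin 44, of 9.02 and 9.07 under hairpin 45, and of 8.17 and 8.08 on the scrambled arrays, and rose by 0.86 (SE 0.0668, adjusted p = 0.0021). ATF4, which drives serine and one-carbon genes, had 10.45 and 10.60 on the hairpin 44 arrays, 10.52 and 10.62 on the hairpin 45 arrays, and 10.29 and 10.45 on the scrambled arrays. Its difference of 0.18 was not called (SE 0.0856, adjusted p = 0.223). With an intensity trend, MYC and ATF4 were both called higher, where 17.3% of all genes were. RELA rose by 0.44 (adjusted p = 0.0112). The part of these genes in the enzyme changes was not tested.

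With p65 shRNA, none of the 10 enzymes was called, and the share of all genes called in either direction was 0%. Without adjustment, PAICS was the 1 enzyme with a p under 0.05, as had 3216 genes in all, or 14.3%, and the smallest adjusted p of any gene was 0.0733. RELA itself had that adjusted p, so the absence of calls in this table of 4 arrays does not show that the enzymes were unchanged. The median of the 10 enzymes was -0.04, and 3 of the 10 had a positive change. The 7 other purine genes had a lower median, -0.49, though none was called. Of these 7, 5 had both p65 arrays below both control arrays and 1, IMPDH1 at 0.39, had both above. The 2 other pyrimidine genes had a median of -0.00275.

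PAICS was the clearest of the set, with signals of 9.05 and 9.22 with p65 shRNA, against 9.72 and 9.71 with control shRNA. The p65 arrays were both lower, and the change was -0.58 (SE 0.172, adjusted p = 0.243). With an intensity trend its adjusted p was 0.0214, and 2.49% of all genes were called lower in that fit. PPAT, its head-to-head neighbour, had signals of 6.80 and 6.86 with p65 shRNA, against 6.89 and 6.88 with control shRNA. That is a change of -0.06 with a 95% interval of -0.469 to 0.355. ATIC had signals of 8.28 and 8.07 with p65 shRNA, against 8.57 and 8.54 with control shRNA, and GMPS had signals of 8.05 and 8.10 with p65 shRNA, against 8.37 and 8.49 with control shRNA. These 4 genes were the only ones of the 10 whose arrays did not overlap, all with p65 shRNA lower, a pattern seen in 22.7% of all genes. All 4 also had every ZHX2 hairpin array above both scrambled arrays, and 7.18% of all genes had both patterns. Since all 10 enzymes had the hairpin pattern, the closer reference is the 4902 genes that had it. Of these, 1611 also had both p65 arrays lower, so the opposite movement was common among such genes.

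The other enzymes overlapped between p65 shRNA and control shRNA. GART had signals of 6.79 and 6.58 with p65 shRNA, against 6.35 and 6.61 with control shRNA. UMPS had signals of 5.87 and 5.63 with p65 shRNA, against 5.27 and 5.94 with control shRNA, so its control arrays alone were further apart than the groups. CTPS1, the most changed of the 10 enzymes with the ZHX2 hairpins, had signals of 6.50 and 6.32 with p65 shRNA, against 6.42 and 6.73 with control shRNA. Its change was -0.16 with a 95% interval of -0.657 to 0.331. The changes of PFAS, IMPDH2 and CAD were 0.08, -0.01 and -0.01. The 95% interval was -0.279 to 0.684 for GART and -0.537 to 0.829 for UMPS. Neither levels nor changes were tested between the tables, and each was treated as normalized on its own.

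**Figure D4:**
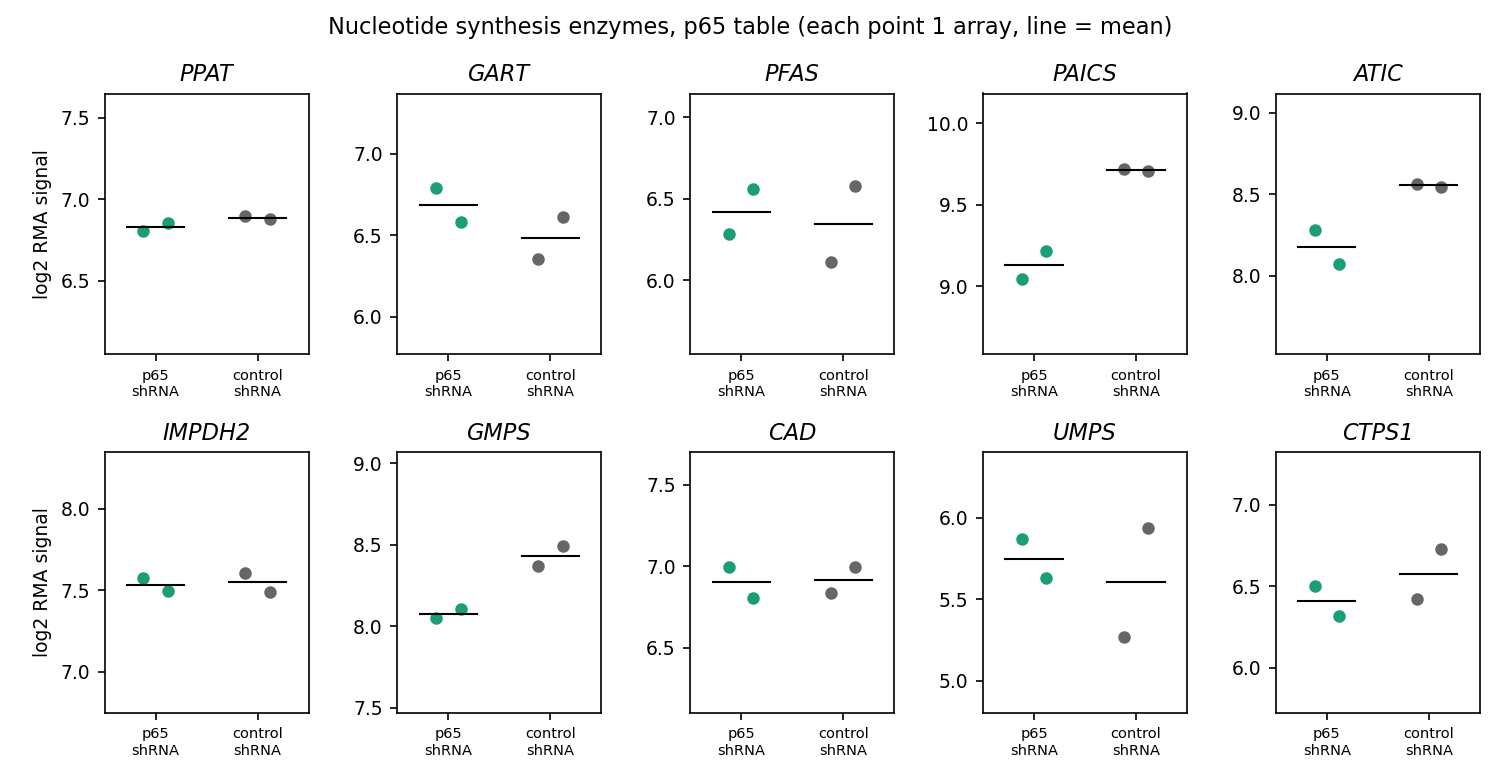
Log2 signal of each of the 10 enzymes on every array of the p65 table, with 1 panel per gene, points for the 2 arrays of each group and a line at the group mean. p65 shRNA stands left of control shRNA; the points of PPAT, PAICS, ATIC and GMPS do not overlap, with p65 shRNA lower, and those of the other 6 enzymes do.

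Beside the enzymes, genes of DNA precursor synthesis had the widest differences of the nucleotide lists with p65 shRNA, though none was called without the intensity trend. TYMS, thymidylate synthase, had signals of 7.34 and 7.48 with p65 shRNA, against 9.03 and 9.46 with control shRNA, a change of -1.83 (SE 0.213, adjusted p = 0.0733, or 0.00238 with an intensity trend). TK1 had signals of 6.10 and 6.60 with p65 shRNA, against 8.21 and 8.59 with control shRNA, a change of -2.05 (adjusted p = 0.0743). The p65 arrays of both genes were far below the control arrays. With an intensity trend, 9 of the 65 other nucleotide genes, or 13.8%, were called lower, where 2.49% of all genes were, and none higher, where 1.37% were. The 9 were TYMS, TK1, RRM1, RRM2 and DTYMK of the deoxynucleotide list, PRPS2, SHMT1, MTHFD1 and HPRT1. They are named here after their values were seen. MYC had signals of 8.46 and 8.25 with p65 shRNA, against 7.17 and 7.39 with control shRNA, a change of 1.07 (SE 0.189, adjusted p = 0.116, or 0.00627 with an intensity trend).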

How the data were processed

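Total RNA of 786-O cells was measured on 10 Affymetrix arrays, in a table of 6 arrays (ZHX2 hairpins 44 and 45, scrambled) and a table of 4 (p65 shRNA, control shRNA). The deposited values are log2 signals per probe set made with RMA, which corrects background, normalizes and summarises probes, per the submitters' processing notes. The software version is not given in the sources used here. Since the platforms and array medians of the tables differ, each was treated as normalized on its own, and no level was compared across them. Depth is not defined for arrays; the 2 arrays of a group limit the precision.

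Each table holds 53617 probe sets. Probe sets were named from the platform annotations of both tables joined, with symbols updated through RefSeq (GRCh38.p14, names and promoters only): 24480 had 1 gene, 1842 several, 27196 none and 99 differed between annotations. CAD, GART and PAICS were named only by the p65 table's annotation. For 1103 genes with several probe sets the brightest was used. Linear models were fitted with limma 3.58.1 in R 4.3.3 over all 22432 genes, on the 6 arrays together (3 residual degrees of freedom) and on the 4 arrays (2), without intensity trend, with Benjamini-Hochberg adjustment and calls at an adjusted p under 0.05. The fit was tested on simulated data. Genes of the lists without a single-gene probe set were not analysed here. Named genes are all 10 enzymes, ZHX2, RELA, MYC, ATF4, IMPDH1, CTPS2, ADSL, DHODH and, per list, the 3 largest called changes in each direction. The enzymes and lists were chosen with earlier results of these data known. Alternatives were median centring or quantile normalization of the arrays, array weights, an intensity trend or robust moderation of the variance, removal of the dimmest 40% of probe sets, averaging of probe sets per gene, a replicate block, a 1.5-fold minimum, fits restricted to the compared groups, and leaving out 1 array at a time.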

Additional observations from a re-analysis of the deposited data

Results flagged for a closer look

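For 4 enzymes every p65 shRNA array was below both control arrays while every ZHX2 hairpin array was above both scrambled arrays. Of all genes, 22.7% had the first pattern, 21.9% the second and 7.18% both. All 10 enzymes had the second pattern, and of the 4902 genes that had it, 1611 had both. PPAT changed by -0.057 with p65 shRNA and by 0.54 with the ZHX2 hairpins, and PAICS by -0.58 with p65 shRNA and by 0.40 with the hairpins. ATIC changed by -0.38 with p65 shRNA and by 0.42 with the hairpins, and GMPS by -0.35 with p65 shRNA and by 0.21 with the hairpins. The difference between the knockdowns was not tested, and no p65 change of the 4 was called by limma without an intensity trend.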

How the results depend on the processing

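No enzyme's call changed direction under any alternative run, and for both hairpins all 160 values over 16 settings were positive, between 0.09 and 0.92. The count of enzymes called for both hairpins, 9 in the reported fit, was 1 with the 1.5-fold minimum and 6 to 9 with each array left out. For hairpin 44, 6 in the reported fit, it was 2 with a replicate block, 1 with the 1.5-fold minimum, 1 on only the groups compared and 0 to 1 with each array left out, but 9 with an intensity trend and 9 without dim probe sets. For hairpin 45, 10 in the reported fit, it was 5 with the 1.5-fold minimum and 3 to 9 with each array left out. With an intensity trend, 2 enzymes were called between the hairpins and 1 with p65 shRNA, against 0 each in the reported fit. Replicate numbers did not pair the arrays (correlations of deviations from group means -0.026 to 0.054), and the replicate block left the both-hairpin count at 9. Over all genes, the both-hairpin count of 4102 was 1038 with the 1.5-fold minimum and 1789 (without scrambled replicate 2) to 3342 with an array left out. The hairpin 44 count of 1716 ranged from 3 without hairpin 44 replicate 1 to 3940 with an intensity trend, the hairpin 45 count of 4513 from 1134 without hairpin 45 replicate 2 to 6251 with a trend, and the count of 89 between hairpins from 0 to 1466 with a trend. The p65 count of 0 was 866 with a trend. Of the genes called, 62.8% were higher for hairpin 44 and 64.7% for hairpin 45, but 51.2% and 53.0% after quantile normalization. The causes were not tested, though leaving out arrays also lowers the residual degrees of freedom. With 1 array left in a group, that array is assumed to vary like the others.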
